A study of Mus musculus with 6 samples.

Results

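The genes described here encode the chaperones, folding enzymes and quality control factors of the endoplasmic reticulum (ER), with the sensors and regulators that adjust them, and were followed in mouse embryonic stem cells in which the long noncoding RNA Panct1 had been depleted. The list has 33 genes, and all 33 had at least 1 probe set annotated to that gene alone, among 18193 genes measured. Each gene was read from its brightest such probe set over the 6 arrays. They were divided by role into 8 sensors and regulators, 15 chaperones and folding enzymes, and 10 genes of ER-associated degradation and protein translocation.

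One group was 3 arrays of Oct4-Gip cells given an esiRNA against Panct1, and the other was 3 arrays of the same cells given an esiRNA against Luciferase, which the cells lack. An esiRNA is a pool of short interfering RNAs cut by an enzyme from a long double strand. All 6 samples carried the Oct4-Gip reporter, were grown in serum with LIF, received 800 ng of esiRNA per 60000 cells by lipofection, and were taken at 72 hours. The labels call the samples replicates without saying that they were separate cultures. The p-values thus reflect only how far these samples differ, and that spread could be technical.

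Proteins that enter the ER are folded by chaperones such as BiP and by disulfide isomerases, and those that fail are passed back through the membrane and degraded by the proteasome. When unfolded proteins accumulate, the membrane sensors IRE1, PERK and ATF6 start the unfolded protein response. IRE1 splices the mRNA of the transcription factor XBP1, PERK slows translation by phosphorylating an initiation factor, and ATF6 is cut to release a transcription factor. Secretory tissues rely on this system, and embryonic stem cells carry it as all nucleated cells do.

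The promoters of many of these genes share the ER stress response element (ERSE), which ATF6 and XBP1 bind together with NF-Y. The element was searched as CCAAT and CCACG with 9 bases of any kind between them, on both strands and with overlaps allowed, in the 250 bases before each start in a RefSeq promoter table of build GRCm38.p6. That table held 27 of the 33 genes. The element was found in 9 of these 27 genes, against 0.113% of all 32817 windows. Because it is known from promoters of genes like these, that contrast is a description and no test. Hspa5, which encodes BiP, and Calr and Derl3, the members with an element whose signals fell, are shown first because their values are followed below. Herpud1 is shown because it alone among the members held the related element ERSE-II, searched as ATTGG and CCACG with 1 base of any kind between them (0.0305% of all windows), and the amino acid and ATF4 response sequence CARE, searched as TGATGCAA (0.792%). The element UPRE, searched as TGACGTGG, was in the windows of 0 of 27 members and in 0.564% of all windows. Each sequence runs 5′ to 3′ on the strand of the gene and ends at the base before the start, and capitals mark the fixed letters of these elements. The windows lie at chr2:34771840-34772089 (plus strand) for Hspa5, chr8:84846932-84847181 (minus strand) for Calr, chr10:75893148-75893397 (plus strand) for Derl3 and chr8:94386179-94386428 (plus strand) for Herpud1.
Hspa5: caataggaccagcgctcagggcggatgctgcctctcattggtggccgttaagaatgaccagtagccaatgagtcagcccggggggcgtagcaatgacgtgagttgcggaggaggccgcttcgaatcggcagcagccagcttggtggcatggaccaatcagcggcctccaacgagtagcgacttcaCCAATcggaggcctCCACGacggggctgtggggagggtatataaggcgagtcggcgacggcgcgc
Calr: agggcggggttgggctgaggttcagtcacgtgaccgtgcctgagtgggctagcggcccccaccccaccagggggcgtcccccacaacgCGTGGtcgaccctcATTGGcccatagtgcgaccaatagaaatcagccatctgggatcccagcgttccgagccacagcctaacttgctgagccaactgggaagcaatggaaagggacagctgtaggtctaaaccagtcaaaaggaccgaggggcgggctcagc
Derl3: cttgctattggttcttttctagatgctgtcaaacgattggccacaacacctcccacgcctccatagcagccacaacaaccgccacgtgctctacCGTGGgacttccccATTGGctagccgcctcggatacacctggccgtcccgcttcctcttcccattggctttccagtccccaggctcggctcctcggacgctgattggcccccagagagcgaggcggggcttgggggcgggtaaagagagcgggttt
Herpud1: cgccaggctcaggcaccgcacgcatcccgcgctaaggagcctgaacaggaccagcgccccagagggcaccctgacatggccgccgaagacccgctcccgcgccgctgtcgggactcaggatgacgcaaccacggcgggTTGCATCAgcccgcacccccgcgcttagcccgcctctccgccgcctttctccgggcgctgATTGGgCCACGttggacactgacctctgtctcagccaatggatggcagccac

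Only exact matches were counted, so near matches, such as a CCAAT followed after 9 bases by CCAAC in Hspa5, stay in lower case. The exact match to the ERSE in Hspa5 spans 65 to 47 bases before the start. In Calr it spans 162 to 144 and in Derl3 156 to 138, in both on the opposite strand, so that the capitals there read CGTGG and then ATTGG. The elements of the other 6 genes are given to show how the fixed ends recur around unlike spacers, each read in its own direction; Hsp90b1 had 2.
Canx: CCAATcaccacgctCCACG
Creld2: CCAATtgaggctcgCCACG
Dnajc3: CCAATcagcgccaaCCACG
Hsp90b1: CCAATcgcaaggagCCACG
Hsp90b1: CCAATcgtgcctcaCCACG
Pdia6: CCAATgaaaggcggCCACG
Syvn1: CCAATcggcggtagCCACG
Of the 9 genes with an ERSE in the window, 0 rose, 2 fell and 7 did not pass in limma, with log2 differences from -0.28 to 0.11. That is 22.2% called, against 24.2% of all genes. Of the 18 with a window and no exact match to the ERSE, 4 rose, 2 fell and 12 did not pass (33.3% called). Their differences ran from -0.39 to 0.73, the latter for Edem1. Herpud1, with its ERSE-II, is among these 18. The 2 sets were not tested against each other. The window of Edem1 starts from a site 4596 bases inside the outermost annotated start of that gene. A match of letters is a description and does not show binding.

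All values are log2 signals from RMA, and differences are Panct1 knockdown minus Luciferase control on that scale. The medians of the arrays lay between 6.07 and 6.09, and the correlation across probe sets was 0.997 to 0.998 within groups and 0.991 to 0.993 between them. The annotation used here names Panct1 for no probe set, and its depletion was not checked. Of 8 embryonic stem cell markers 4 fell, by 0.20 to 0.50 (Utf1, Pou5f1, Zfp42 and Esrrb). The other 4 did not pass. Nanog was 0.15 higher, and Sox2, Tdgf1 and Dppa5a differed by -0.14, -0.13 and -0.00. The summed signal of the 8 was 16.21 to 16.25 in knockdown and 16.34 to 16.38 in control. All 8 trophectoderm markers rose, with a summed signal of 13.59 to 13.78 in knockdown against 11.66 to 11.77 in control. That sum is mostly the keratins Krt8, Krt18 and Krt19, at 12.19, 11.51 and 11.51 in knockdown and 9.90, 9.30 and 9.11 in control. Cdx2 and Gata3 were dimmer, at 7.21 and 5.97 in knockdown, and rose by 0.77 each. The marker lists were chosen with earlier results of these data known. The feeder fibroblast list summed to 8.85 to 8.94 in knockdown and 8.78 to 8.84 in control, where 2 of 7 genes rose, Col3a1 and Col1a1, and 1 of the 7, Lum, lay below the lower quartile of all 6 arrays. Of 7 primitive endoderm markers 2 rose, Sparc and Dab2, and 2 fell, Gata6 and Sox17, with sums of 12.09 to 12.22 in knockdown and 11.81 to 11.91 in control that are mostly Sparc (11.99 in knockdown and 11.65 in control). The part of these cell type markers in the ER results was not tested, and a changed mix of cells cannot be told apart from changed RNA per cell.

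Panct1 knockdown replicate 1 stood apart from replicates 2 and 3 for many of the 33 genes. It was the highest knockdown array for 25 of 33 members (75.8%), as it was for 33.5% of all genes. Among the 10 degradation and translocation genes it was the highest for 8, and among the 8 sensors and regulators it was the highest for 4 and the lowest for 4. Among ER genes outside these 33 it was the highest for 40.6% of folding, 37.0% of degradation and 47.6% of translocon genes. Among the 15 chaperones and folding enzymes it was the highest for 13. The exceptions were Hsp90b1, at 12.68, 12.69 and 12.59 in knockdown replicates 1 to 3, and Canx, where replicates 1 and 2 were both at 13.25. Among the control arrays, replicate 2 was the highest for 9 of these 15 genes and replicate 1 was the lowest for 8. The median signal of the 15 genes was 11.67, 11.46 and 11.46 in knockdown replicates 1 to 3. In control replicates 1 to 3 it was 11.44, 11.66 and 11.44. On every array this median equals the signal of a single gene, Pdia6, so it does not give the size of a shift shared by the 15. Control replicate 2 was the lowest control array for 3 of the 15 genes. Knockdown replicate 3 was the lowest knockdown array for 22 of all 33 members (66.7%), as it was for 30.1% of all genes. Results that turn on knockdown replicate 1 are therefore given with and without it.

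**Figure D1:**
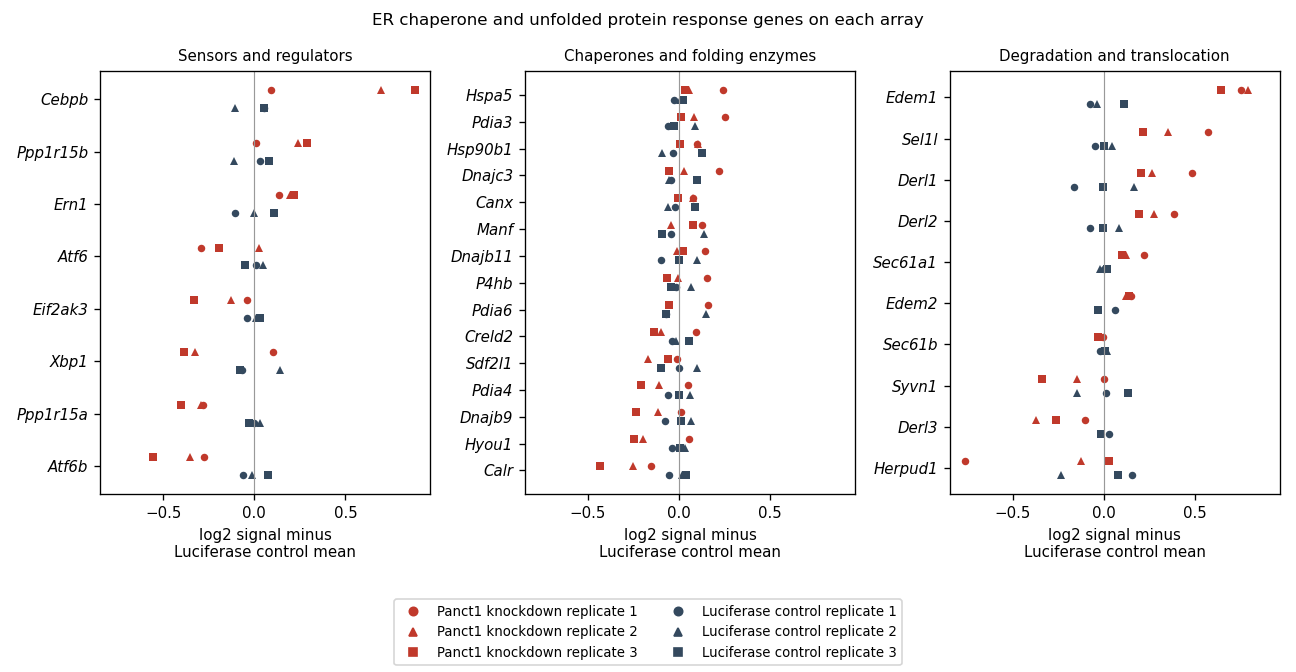
Log2 signal of each of the 33 genes on each of the 6 arrays, minus the mean of the 3 Luciferase control arrays, by role; each point is 1 array, and its shape gives the replicate number. Knockdown replicate 1 (red circles) lies to the right of the other knockdown arrays for 13 of 15 chaperones and folding enzymes, and far to the left for Cebpb and Herpud1.

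In limma, 4 of the 33 genes rose and 4 fell at an adjusted p under 0.05, and 25 did not pass. That is 24.2% of the members, and 24.2% of all genes tested were called as well, 12.9% higher and 11.3% lower in knockdown. The members' median difference was 0.03, against -0.02 over all genes, and their median absolute difference was 0.15, against 0.12. The 3 knockdown arrays lay wholly above the 3 control arrays for 9 members and wholly below for 4, while the groups did not overlap for 38.3% of all genes (18.7% higher and 19.6% lower). No chosen probe set of a member fell below the lower quartile of any array (4.65 to 4.70).

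**Figure D2:**
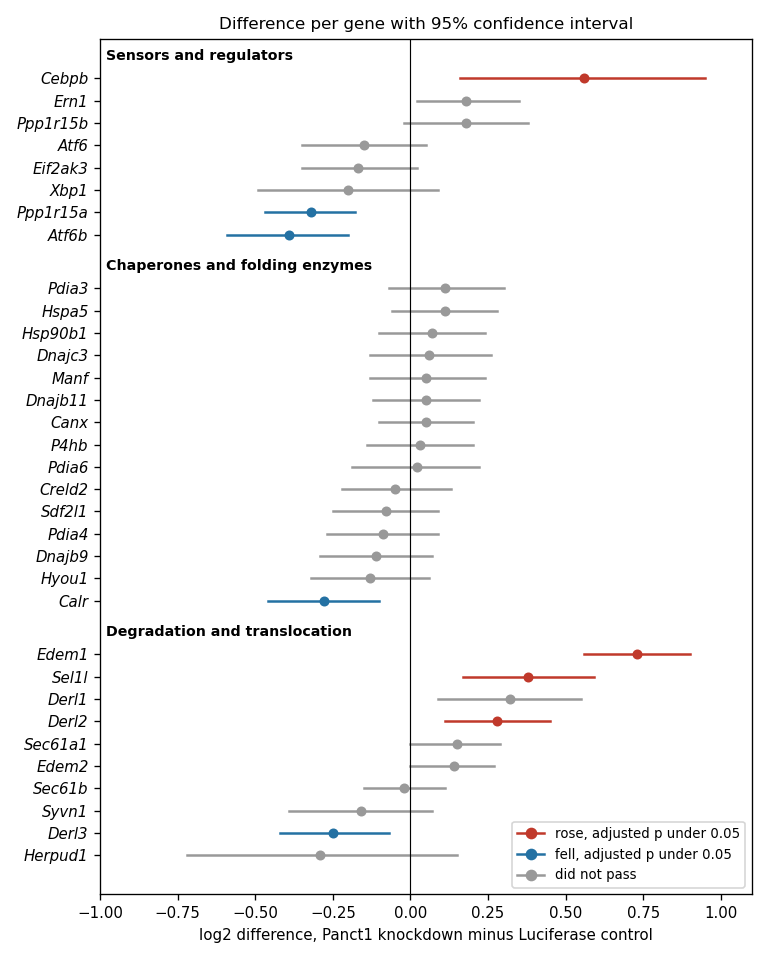
Log2 difference of Panct1 knockdown minus Luciferase control for each gene, with its 95% confidence interval from limma, by role. Edem1 at 0.73 is the largest difference, Atf6b at -0.39 is the lowest, and 14 of the 15 chaperones and folding enzymes did not pass.

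Of the 8 sensors and regulators, Cebpb rose, Ppp1r15a and Atf6b fell, and 5 did not pass, so that 37.5% were called, against 24.2% of all genes. Among the sensors themselves, neither Ern1, Eif2ak3 nor Atf6 passed. Atf6b, which encodes the membrane-bound factor related to ATF6, had signals of 8.49, 8.41 and 8.21 in the knockdown arrays and 8.70, 8.75 and 8.84 in the control arrays. All 3 knockdown arrays were below every control array. It fell by 0.39 in log2 signal (SE 0.08, n = 3 per group, limma adjusted p = 0.00934), to 8.37 ± 0.14 in knockdown against 8.76 ± 0.07 in control (SD).

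Ppp1r15a encodes GADD34, the stress-induced subunit that directs a phosphatase to the initiation factor phosphorylated by PERK. Its signals were 9.36, 9.35 and 9.24 in knockdown, against 9.64, 9.67 and 9.61 in control, with no overlap. It fell by 0.32 in log2 signal (SE 0.06, n = 3 per group, limma adjusted p = 0.00599). Ppp1r15b, the constitutive subunit for the same phosphatase, had 10.93, 11.16 and 11.21 in knockdown and 10.95, 10.81 and 11.00 in control. These groups overlapped, through knockdown replicate 1, and the difference of 0.18 did not pass (limma adjusted p = 0.196, n = 3 per group). Without that array it was 0.26 and just missed the threshold (adjusted p = 0.0505; 0.0505 to 1.00 over 17 alternatives).

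Cebpb encodes a transcription factor that is induced in stress and partners with other bZIP factors, among them CHOP. It read 8.82, 9.42 and 9.61 in knockdown and 8.78, 8.62 and 8.78 in control. Knockdown replicate 1 was only just above the controls, and the other knockdown arrays were clearly higher. The gene rose by 0.56 (SE 0.17, n = 3 per group, limma adjusted p = 0.0475). Without knockdown replicate 1 the difference was 0.79 (adjusted p = 6.53e-04), and the call was lost on leaving out any of the other 5 arrays (adjusted p from 0.0907 to 0.136); over 17 alternatives in limma the range was 6.53e-04 to 1.00. Its second probe set differed by 0.36 and did not pass (adjusted p = 0.230 over all probe sets).

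Xbp1, the factor whose mRNA is spliced by IRE1, read 11.94, 11.51 and 11.45 in knockdown, against 11.77, 11.98 and 11.76 in control. Knockdown replicates 2 and 3 were below every control, and replicate 1 lay among them. The difference of -0.20 did not pass (limma adjusted p = 0.309, n = 3 per group). Without knockdown replicate 1 the difference was -0.36 (limma adjusted p = 0.0225), the 1 of 17 alternatives that passed (range 0.0225 to 1.00). Xbp1 differed by -0.13 without control replicate 2, the highest control, and by -0.11 without knockdown replicate 3 (limma adjusted p = 0.589 and 0.621). Of its other probe sets, 2 differed by -0.28 and -0.29, with the same low replicates 2 and 3, and the dimmest by 0.02. Splicing of Xbp1 was not assessed.

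Eif2ak3, which encodes PERK, read 9.59, 9.50 and 9.30 in knockdown and 9.59, 9.64 and 9.66 in control, with knockdown replicate 1 level with the lowest control. Its difference of -0.17 did not pass (limma adjusted p = 0.190, n = 3 per group). Ern1, which encodes IRE1 alpha, read 7.56, 7.62 and 7.64 in knockdown against 7.32, 7.42 and 7.53 in control. The groups did not overlap for Ern1, but the difference of 0.18 did not pass (adjusted p = 0.103), and its other 4 probe sets differed by -0.19 to 0.13. Atf6 differed by -0.15 (adjusted p = 0.259), and its 3 probe sets went both ways, from -0.16 to 0.20.

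The chaperones and folding enzymes stayed close to control levels: 0 of 15 rose, 1 fell and 14 did not pass in limma, and 1 had an unadjusted p under 0.05, as 35.1% of all genes did. Their share of calls was 6.67%, against 24.2% of all genes. The median of their differences was 0.03, with 9 above 0 and 6 below. Without knockdown replicate 1 the median was -0.04, with 6 above 0 and 9 below. That fit kept control replicate 2, the highest control array for 9 of the 15 genes. The median was not taken without control replicate 2, so the change of sign shows no lean of the group.

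Calr, which encodes calreticulin, the soluble lectin chaperone that binds glycoproteins and calcium, was the member that fell. Its signals were 12.67, 12.57 and 12.39 in knockdown and 12.77, 12.84 and 12.86 in control. Every knockdown array was below every control array, and Calr fell by 0.28 in log2 signal (SE 0.08, n = 3 per group, limma adjusted p = 0.0357). The other 2 probe sets fell by 0.33 and 0.35 and passed over all probe sets (limma adjusted p = 0.0230 and 0.0220). Both end in _x_at and the brightest in _a_at, so the setting without such sets left no value for Calr. The brightest set missed the threshold whenever 1 array other than knockdown replicate 1 was left out (adjusted p from 0.0670 to 0.0986; 0.00617 to 1.00 over 16 alternatives). Canx, which encodes calnexin, the membrane-bound lectin of the same cycle, read 13.25, 13.25 and 13.17 in knockdown against 13.15, 13.11 and 13.26 in control. The difference of 0.05 had a 95% interval of -0.10 to 0.20. Whether Calr and Canx differed from each other in response was not tested.

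Hspa5 encodes BiP, a widely used reporter of ER stress. It read 13.24, 13.05 and 13.03 in knockdown and 12.97, 13.00 and 13.02 in control. The groups did not overlap, with knockdown replicate 1 alone well above the rest. The difference was 0.11 (95% interval -0.06 to 0.28, limma adjusted p = 0.338, n = 3 per group), and 0.04 without that array (adjusted p = 0.715; 0.161 to 1.00 over 16 alternatives). Its other probe sets differed by 0.11 and 0.00.

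The cofactors of BiP also did not pass. Hyou1, which encodes its nucleotide exchange factor, read 10.47, 10.22 and 10.17 in knockdown against 10.38, 10.45 and 10.42 in control, a difference of -0.13. Knockdown replicates 2 and 3 were below the controls and replicate 1 above them, and without replicate 1 the difference was -0.22 and did not pass (limma adjusted p = 0.0541; 0.0541 to 1.00 over 17 alternatives). The J-domain partners differed by 0.06 for Dnajc3, 0.05 for Dnajb11 and -0.11 for Dnajb9, and Sdf2l1, a partner of Dnajb11, by -0.08. Manf, a secreted protein that binds BiP, differed by 0.05, and Creld2, another secreted ER stress protein, by -0.05. Their limma adjusted p-values lay between 0.333 for Hyou1 and 0.724 for Creld2.

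Hsp90b1, the ER member of the Hsp90 family, differed by 0.07 in its brightest probe set (adjusted p = 0.570). The other set read 11.71, 11.46 and 11.42 in knockdown against 11.26, 11.24 and 11.17 in control, with no overlap. It differed by 0.31 and just missed the threshold over all probe sets (adjusted p = 0.0512), and it passed where the probe set with the largest interquartile range stood for the gene (adjusted p = 0.0353; 0.0353 to 1.00 over 16 alternatives). Among the disulfide isomerases, Pdia3, which works with calnexin and calreticulin, differed by 0.11, P4hb, the founding member, by 0.03, Pdia6 by 0.02 and Pdia4 by -0.09. None of these 4 passed in limma (adjusted p from 0.371 to 0.922), and the 95% intervals of all 14 uncalled members of the group lay within -0.32 and 0.30.

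Of the 10 genes of ER-associated degradation and translocation, Edem1, Sel1l and Derl2 rose, Derl3 fell and 6 did not pass. That is 40.0% of these genes, against 24.2% of all genes. Their median difference was 0.14, against -0.02 over all genes, and the knockdown arrays lay wholly above the controls for 6 of them and wholly below for 1, against 18.7% and 19.6% of all genes.

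Edem1 encodes a mannosidase-like lectin that draws misfolded glycoproteins out of the folding cycle. Its signals were 9.56, 9.60 and 9.45 in knockdown and 8.73, 8.77 and 8.92 in control. The knockdown arrays were all far above the controls, and the gene rose 1.66-fold, a log2 difference of 0.73 (SE 0.08, n = 3 per group, limma adjusted p = 2.03e-04), to 9.54 ± 0.08 in knockdown against 8.81 ± 0.10 in control (SD). Its second probe set rose by 0.81 (adjusted p = 1.19e-04 over all probe sets). The difference was 0.69 to 0.81 over all settings run, and 0.72 without knockdown replicate 1. Edem2, the enzyme that trims the first mannose, read 8.94, 8.91 and 8.93 in knockdown and 8.85, 8.76 and 8.76 in control. The groups did not overlap, but the difference of 0.14 did not pass (limma adjusted p = 0.145, n = 3 per group).

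Sel1l, the adaptor of the ubiquitin ligase HRD1, read 9.27, 9.05 and 8.91 in knockdown and 8.65, 8.74 and 8.70 in control. It rose by 0.38 in its brightest probe set (SE 0.09, n = 3 per group, limma adjusted p = 0.0167), with knockdown replicate 1 the highest, and missed the threshold without control replicate 1 (adjusted p = 0.0628). Its 5 probe sets disagreed. One other was 0.19 higher, another differed by -0.01, and 2 were lower, by -0.18 and -0.33. The last of these read 6.49, 6.11 and 6.21 in knockdown against 6.60, 6.64 and 6.57 in control, without overlap, and just missed the threshold over all probe sets (adjusted p = 0.0576). The mean over probe sets differed by 0.01 (adjusted p = 0.935), so the direction for Sel1l depended on the probe set; adjusted p ranged from 0.00473 to 1.00 over 17 alternatives. Syvn1, which encodes HRD1 itself, read 9.21, 9.06 and 8.87 in knockdown and 9.22, 9.06 and 9.34 in control, and its difference of -0.16 did not pass (limma adjusted p = 0.321, n = 3 per group).

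The Derlins are membrane proteins of the retrotranslocation channel. Derl2 read 10.83, 10.72 and 10.64 in knockdown and 10.37, 10.53 and 10.44 in control. It rose by 0.28 (SE 0.07, n = 3 per group, limma adjusted p = 0.0239) with no overlap. Its second probe set differed by 0.09, with groups that overlapped (adjusted p = 0.678 over all probe sets). Without knockdown replicate 1 its difference was 0.23 and missed the threshold (adjusted p = 0.0689), as it did without knockdown replicate 2 or control replicate 1 or 3, with the mean of probe sets (0.0922) and under the replicate block (0.0579; 0.00720 to 1.00 over 17 alternatives).

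Derl1 read 10.87, 10.65 and 10.59 in knockdown and 10.22, 10.55 and 10.38 in control. Its arrays did not overlap either, all 4 of its probe sets were higher, by 0.16 to 0.32, and the brightest just missed the threshold (difference 0.32, limma adjusted p = 0.0532, n = 3 per group); it passed without control replicate 2 (adjusted p = 0.0299; 0.0203 to 1.00 over 17 alternatives). Derl3, the member of the family best known from secretory cells, went the other way, with 8.43, 8.16 and 8.27 in knockdown against 8.56, 8.52 and 8.52 in control. It fell by 0.25 in log2 signal (SE 0.08, n = 3 per group, limma adjusted p = 0.0497). It missed the threshold whenever 1 array other than knockdown replicate 1 was left out (adjusted p from 0.0981 to 0.180; 0.00824 to 1.00 over 16 alternatives).

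Herpud1 encodes a small membrane protein of the HRD1 complex that ER stress and ATF4 induce. It read 8.40, 9.04 and 9.19 in knockdown and 9.32, 8.93 and 9.24 in control. Knockdown replicate 1 was well below the other 5 arrays, in the direction opposite to most chaperones on that array. The difference was -0.29 with all arrays (limma adjusted p = 0.338, n = 3 per group) and -0.05 without that array (adjusted p = 0.832; 0.148 to 1.00 over 17 alternatives). The second probe set was also lowest there, at 7.68, 8.23 and 8.47 in knockdown against 8.42, 8.21 and 8.40 in control.

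Of the channel subunits through which new proteins enter the ER, Sec61a1 read 12.63, 12.53 and 12.51 in knockdown and 12.41, 12.39 and 12.43 in control. The groups did not overlap, the difference of 0.15 did not pass (limma adjusted p = 0.131, n = 3 per group), and its other 5 probe sets differed by -0.01 to 0.08. Sec61b differed by -0.02 (95% interval -0.15 to 0.11), with all 6 arrays between 13.33 and 13.38.

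The 33 genes had 79 probe sets in all, and 23 genes had more than 1. Over all probe sets tested, 4 of the 79 rose and 4 fell, against 14.6% of all probe sets called, 7.82% higher and 6.76% lower. The rises were in Edem1, Sel1l and Derl2 and the falls in Calr, Atf6b and Ppp1r15a, and for 0 genes did probe sets pass in both directions. The differences of 1 gene's probe sets had both signs for 12 of the 23 genes.

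**Figure D3:**
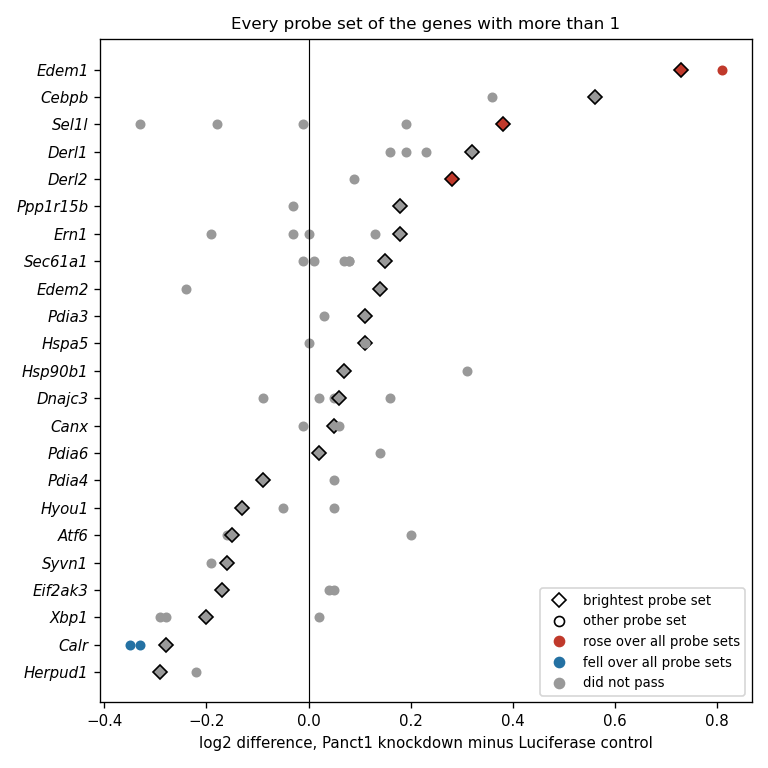
Log2 difference of Panct1 knockdown minus Luciferase control for every probe set of the 23 genes with more than 1, with diamonds for the brightest set of a gene and colour for the call over all probe sets. Both sets of Edem1 and all 3 of Calr lie on 1 side of 0, while those of Sel1l spread from -0.33 to 0.38.

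Further genes of the same compartment were taken from lists written by role. Of 32 other measured genes of ER folding and glycoprotein quality control, 7 rose and 2 fell, which is 28.1% against 24.2% of all genes, and the median difference was 0.14. Serpinh1, the collagen chaperone, rose 1.80-fold to 9.14 ± 0.03 in knockdown, against 8.29 ± 0.05 in control (SD, n = 3 each, limma adjusted p = 3.21e-05). The thioredoxin-related oxidoreductases Tmx4 and Txndc5 rose by 0.42 and 0.40. The 2 that fell, named after their values were seen, were the prolyl isomerases Fkbp7, which fell by 0.42, and Fkbp11, which fell by 0.20.

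Of 27 other measured genes of ER-associated degradation 6 rose and 0 fell in limma (22.2%, against 24.2% of all genes), with a median difference of 0.02. An unadjusted p under 0.05 was reached by 10 of the 27, against 35.1% of all genes. Sel1l3, a paralogue of Sel1l, rose 2.05-fold, to 7.15 ± 0.02 in knockdown against 6.12 ± 0.13 in control (SD, n = 3 each, limma adjusted p = 3.45e-05). Herpud2, the paralogue of Herpud1, rose by 0.47, and Erlec1, a lectin that recognises trimmed glycans, by 0.45. Of 21 other measured genes of the translocon and signal peptide processing 2 rose and 1 fell (14.3%, against 24.2% of all genes), with a median difference of 0.02. Sec63, the J-domain partner of BiP at the channel, rose by 0.24 and Srp14, of the signal recognition particle, by 0.22, while Ssr2, a subunit of the translocon-associated protein complex, fell by 0.40.

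The list of the ATF4 and CHOP branch holds kinases of the integrated stress response other than PERK, and genes that such kinases control. Of its 19 measured genes, 4 rose and 1 fell (26.3%, against 24.2% of all genes), with a median difference of 0.14. Knockdown replicate 1 was the lowest knockdown array for 14 of the 19. Ddit4 rose 1.86-fold, Atf3 by 0.68 and Eif2ak4, which encodes the amino acid sensing kinase GCN2, by 0.43. Named after their values were seen, Asns, asparagine synthetase, rose by 0.59, from signals of 11.66, 12.09 and 12.44 in knockdown against 11.66, 11.35 and 11.42 in control that overlapped, and Eif2ak1, which encodes the haem-regulated kinase of the same factor, fell by 0.32. Of 14 other ER stress transducers and processing enzymes 1 rose, Dab2ip by 0.30, and 0 fell (7.14%, against 24.2% of all genes), with 3 at an unadjusted p under 0.05 in limma. The next smallest p-values there were for Mbtps2, which encodes a protease that cuts ATF6 (difference 0.21, adjusted p = 0.0815), and Bfar (difference -0.16, adjusted p = 0.109).

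Chaperones outside the ER were set beside these. Of 20 measured cytosolic and mitochondrial chaperone genes 2 rose and 2 fell (4 of 20 genes, against 24.2% of all genes), with a median difference of -0.04. Hspa1b read 11.10, 10.61 and 10.37 in knockdown against 9.74, 9.83 and 9.73 in control and rose 1.90-fold (limma adjusted p = 0.00284, n = 3 per group). Hspa1a rose by 0.60; these near-identical genes may share probes, so their signals are uncertain as separate measurements. The J-domain genes Dnajb6 and, named after its values were seen, Dnajb1 fell by 0.31 and by 0.24.

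**Figure D4:**
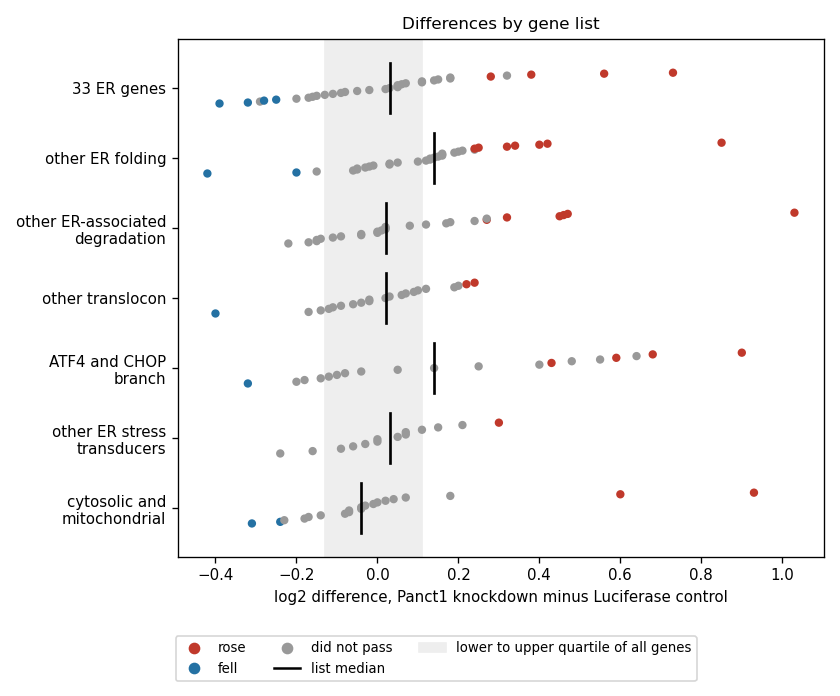
Log2 difference of Panct1 knockdown minus Luciferase control for each gene (points, coloured by call) of the 33 ER genes and 6 neighbouring lists, with black lines for list medians and a grey band from the lower to the upper quartile of all genes, -0.13 to 0.11. The medians of the other ER folding list and the ATF4 and CHOP list, both 0.14, lie outside the band, and the others lie within it.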

How the data were processed

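The series holds 6 Affymetrix Mouse 430 version 2 arrays. The authors deposited a log2 signal for each probe set on each array; per the submitters' processing notes GCOS 1.4 and RMA were used, and which arrays were normalised together is not given in the sources used here. RMA draws small differences of dim probe sets towards 0, and the number of arrays limits precision.

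Of 45101 probe sets, 64 controls were left out. Probe sets with exactly 1 symbol (34945) gave 18193 genes, each read from its brightest set, with symbols updated through a RefSeq table of GRCm38.p6. Differences were fitted with limma 3.58.1 (R 4.3.3, lmFit and eBayes, group as the only term) across all genes, two-sided, and adjusted by Benjamini-Hochberg over all genes at 0.05; probe sets were fitted and adjusted over all 45037. The script was tested on simulated data. No pairing of the samples by replicate number was seen in the values, which cannot exclude a shared culture or transfection. The members, roles and lists were chosen with earlier results of these data known. Every member is named, with the 3 genes of smallest p of each other list. The alternatives were the replicate block, other scalings, variance models, array weights, a filter on dim genes, other probe set choices, adjustment over all probe sets, a 1.5-fold minimum and leaving out each array.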

Additional observations from a re-analysis of the deposited data

How the results depend on the processing

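Over all genes, 318 were called with a 1.5-fold minimum in place of 4404, and 3133 to 3986 on leaving out 1 array. For the 33 ER genes the 8 calls became 5 with the replicate block, 5 with the mean of probe sets, 5 when adjusted over all probe sets and 0 with a 1.5-fold minimum (limma's treat, 1 at an unadjusted p under 0.05), and 3 to 8 without 1 array. The lowest, 3, came without Luciferase control replicate 1. Without knockdown replicate 2 or control replicate 3 there were 4, and without knockdown replicate 3 there were 5. The 3 sensors and regulators became 0 with the 1.5-fold minimum (0 unadjusted) and 2 to 4 without 1 array. The 1 chaperone became 0 with the replicate block, 0 when adjusted over all probe sets (1 unadjusted in each), 0 with the 1.5-fold minimum (0 unadjusted), 0 of 11 without sets ending in _s_at, _x_at or _a_at (0 unadjusted), 2 with the probe set of largest interquartile range and 0 to 1 without 1 array. The 4 degradation and translocation genes became 2 with the replicate block, 2 with the mean of probe sets, 0 with the 1.5-fold minimum (1 unadjusted) and 1 to 4 without 1 array, with 1 without control replicate 1 and 2 without knockdown replicate 2 or control replicate 3. Sel1l turned to -0.33 with the probe set of largest interquartile range (adjusted p = 0.0384); the choice of probe set is the only thing changed there. The causes of the other changes were not tested. Of 556 values of single members under the alternatives, 507 kept direction and side of the threshold or were uncalled in both. Of the rest, 39 lost a call, 9 gained one and 1 reversed. Only the 8 called members could lose a call, and most of the 556 values belong to the 25 members without one. Cebpb passed in 8 of 17 alternatives, Derl2 in 10 of 17, Calr in 8 of 16 and Derl3 in 7 of 16. Sel1l passed in 14 of 17, of which 1 was the reversed value. Same-numbered knockdown and control arrays deviated from their group means with correlations of -0.187, -0.261 and -0.102 across genes. No pairing by number was thus seen in the values, which cannot tell whether same-numbered samples shared a culture or transfection. Other combinations gave 0.273 (knockdown replicate 1 with control replicate 2), 0.284 (2 with 3) and 0.215 (3 with 1). The rest gave -0.114 to -0.019. Whether the arrays of the positive combinations were handled together was not tested, and no block was fitted by them. The block by replicate number also took the count over all genes to 3496. Atf6b, Ppp1r15a and Edem1 were called in 16 of 17 alternatives each, the exception being the 1.5-fold minimum.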

Other observations

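Genes of the ATF4 and CHOP branch were ordered among the replicates in the opposite way to the 15 ER chaperones and folding enzymes. Knockdown replicate 1 was the lowest knockdown array for 14 of 19 measured genes of that branch (73.7%, against 35.5% of all genes), while it was the lowest for 0 of 15 chaperones and folding enzymes. Luciferase control replicate 2 was the lowest control array for 13 of the 19 (68.4%, against 31.5% of all genes), and the highest for 9 of the 15 chaperones (60.0%, against 36.5%). The cytosolic and mitochondrial chaperones did not share this order, with knockdown replicate 1 the highest for 7 and the lowest for 8 of 20. Of the 32 other ER folding genes, knockdown replicate 1 was the highest for 13 and the lowest for 8. For those 32, control replicate 2 was the highest control array for 17 and control replicate 1 the lowest for 22. These counts describe 6 arrays, and genes of a list are not independent of each other.

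Genes named here after their values were seen show the size of that spread. Chac1, which encodes an enzyme that breaks down glutathione, read 7.22, 8.82 and 9.35 in knockdown and 9.05, 8.01 and 8.86 in control. Trib3, a pseudokinase induced by ATF4, read 8.18, 9.37 and 9.84 in knockdown and 9.08, 8.63 and 8.94 in control. Ddit3, which encodes CHOP, read 8.18, 8.72 and 9.14 in knockdown and 8.33, 8.17 and 8.11 in control, and Atf4 read 11.64, 12.18 and 12.44 in knockdown and 12.37, 12.05 and 12.21 in control. For all 4 the replicates of 1 group spanned more than the difference between the group means, and none passed in limma (adjusted p from 0.127 for Ddit3 to 0.841 for Chac1, n = 3 per group).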
